A study of Mus musculus with 14 samples.

Results

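The comparison is labelled genotype over both diets: libraries titled overexpression (OE) against libraries titled control (CT), with diet as an additive term. Members were taken by these titles, which gives 14 of the 14 libraries of the series, 8 OE and 6 CT. RNA-seq measured polyadenylated RNA of skeletal muscle from male FVB/N mice in which c-Myc is switched on in endothelial cells, to ask what the endothelial transgene changes in muscle during diet-induced obesity. OE animals carry Tet-O-Myc, listed as FVB/N-Tg(tetO-MYC)36aBop/J, with human c-Myc behind a tetracycline operator, and Cdh5-tTA, a tetracycline transactivator driven by the promoter of the endothelial cadherin gene. CT animals are Tet-O-Myc littermates without the transactivator, so they hold the transgene but have nothing to drive it, and they lack tTA itself. In both genotypes doxycycline chow (#TD.01306), which holds the transactivator off, was withdrawn at 4 to 6 weeks of age. The animals ate control diet (CTD, #TD.08485) or western high-fat diet (WD, #TD.88137) for 20 weeks by the labels, and the age at harvest is not stated. The sources disagree on the time on diet, and a shorter time is also given for these libraries. By the labels, the groups hold 3 libraries for CT-CTD, 3 for CT-WD, 4 for OE-CTD and 4 for OE-WD. Another account of the design gives group sizes by diet that do not match these labels and would match if the names CT-WD and OE-CTD were exchanged. Under that exchange the difference called genotype here would be the difference between diets, so every call below is a statement about the labels. That account also reports the genes Zbtb16 and Rabif as higher in OE-WD than in CT-WD. Over both diets, each was lower in OE as labelled and higher under the exchange. The deposited files alone do not settle which naming is right. Soleus and gastrocnemius were harvested, which of them each library came from is not given, and nothing says that libraries came from separate animals, so the p values below measure the spread between libraries. Each library holds between 21833839 and 28519159 counted reads.

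The labelled tissue was checked against its markers, which were present in all 14 libraries. Levels are CPM, counts relative to effective library size. Acta1, the actin of skeletal muscle thin filaments, read 37282 to 52610.3 CPM (median 41843), Ckm, the muscle creatine kinase, 11758 to 15874 CPM (median 12781) and Des, the intermediate filament protein desmin, 4222 to 6220.3 CPM (median 4763). Myog, a factor of myoblast differentiation, read 5.85 to 76.6 CPM (median 8.95). Its highest value was that of CT-WD 3. The cells in which the transactivator is driven were also seen: Pecam1, an endothelial adhesion molecule, read 68.6 to 103 CPM (median 91.1) and Cdh5 74.6 to 117 CPM (median 91.5). Of 4 tested Y-linked genes, 0 were called higher and 0 lower, with a median log2 fold change of -0.12.

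Some libraries stood apart from the others of their label. On the first principal component of log2 CPM, which carried 28.01% of the variance, the OE libraries lay between -9.20 and 33.7. CT-CTD 1 lay at -0.154 and CT-WD 1 at 20.3, among the OE libraries, while the other CT libraries lay between -47.0 and -33.1. OE-CTD 4 and OE-WD 4 were low on the second component (12.6%), at -47.6 and -28.9. Mitochondrial genes took 14.9% of their counts for OE-CTD 4 and 14.5% for OE-WD 4, against 9.66% to 12.8% in the others. The submitters' codes differ between these libraries. CT-CTD 1 and CT-WD 1 carry M352 and M351 and the other CT libraries M689 to M692, whereas OE-CTD 1 to 3 carry M01181, MM1181 and MT1181, OE-CTD 4 M01179, and OE-WD 1 to 4 M08548, MT8548, MB8548 and MTB8548. What the codes stand for is not given, and genotype cannot be told apart from the series of codes. Counts over all genes, and those list counts that changed, are therefore also given without CT-CTD 1 and CT-WD 1, a choice made after the values were seen.

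**Figure D1:**
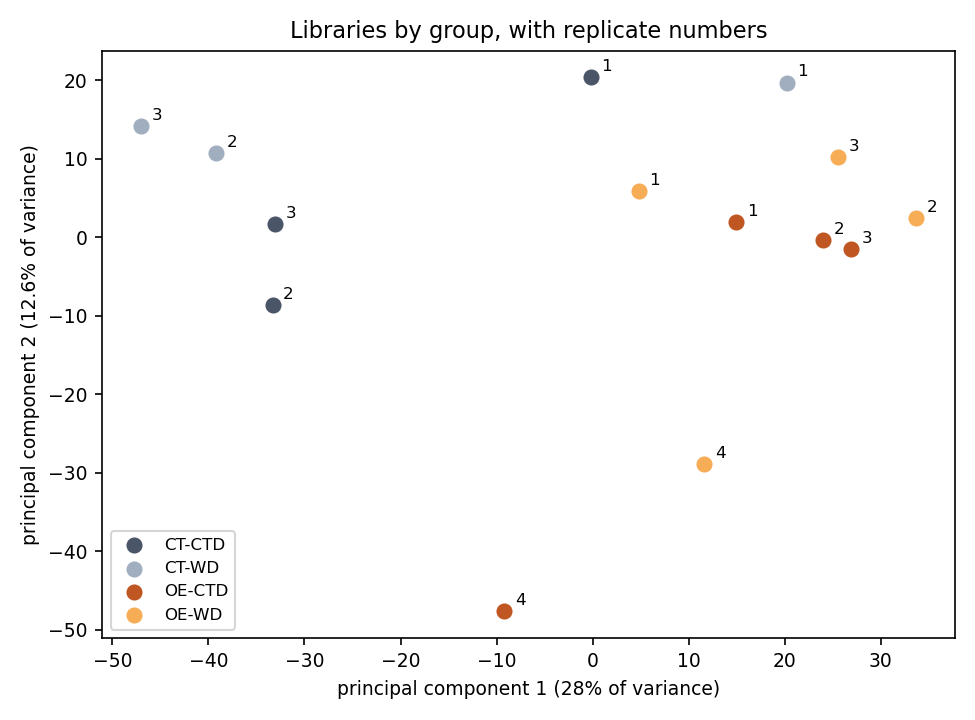
Principal components of log2 CPM of the 14 libraries, with the first component (28.01% of the variance) on the horizontal and the second (12.6%) on the vertical axis, and 1 point for each library. CT-CTD 1 and CT-WD 1 lie among the OE libraries on the first component, and OE-CTD 4 lies lowest on the second at -47.6.

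Single genes of the clock, glucocorticoid, atrophy, matrix, fibroblast and tendon lists, among others, differed by labelled genotype. No list was tested as a set. Of 15458 genes tested with edgeR's quasi-likelihood test, 552 (3.57%) were called, which means a fold change over 1.5 with a Benjamini-Hochberg adjusted p under 0.05. Of these, 365 (2.36% of genes tested) were higher in OE and 187 (1.21%) lower, and 492 code for proteins. Adjusted p under 0.05 at any fold change held for 1282 genes (8.29%), 762 higher (4.93%) and 520 lower (3.36%), and 1097 (7.1%) had the fold change with an unadjusted p under 0.05. The median log2 fold change over all genes tested was -0.0031, and the medians of gene lists below are of the same quantity. Every count of list members called below stands against the 2.36% of all genes called higher and the 1.21% called lower. Among the 552 called, 409 (2.65% of genes tested) also had an unadjusted p under 0.05 within each diet, 275 higher (1.78%) and 134 lower (0.867%); these are the genes that differ in both diets here. The libraries of the genotypes did not overlap within either diet for 178 of the called genes and for 477 of all genes tested (3.09%), 266 higher (1.72%) and 211 lower (1.36%). All 8 OE libraries lay beyond all 6 CT libraries, over both diets, for 283 genes tested (1.83%), 164 above (1.06%) and 119 below (0.77%).

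Within CTD alone, 295 genes (1.91%) were called, 183 higher (1.18%) and 112 lower (0.725%). Within WD alone, 87 (0.563%) were called, 39 higher (0.252%) and 48 lower (0.311%). In the same direction, 38 genes (0.246%) were called in each diet on its own. The test of the difference itself, diet by genotype, called 0 genes with edgeR, against 417 with the fold change and an unadjusted p under 0.05 (2.7%), 9 with DESeq2 and 0 with limma, and its smallest adjusted p was 0.675. Over all genes tested, the log2 fold changes on CTD and on WD had a Pearson correlation of 0.489. A gene called in 1 diet and not in the other is therefore not shown to differ between them.

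**Figure D2:**
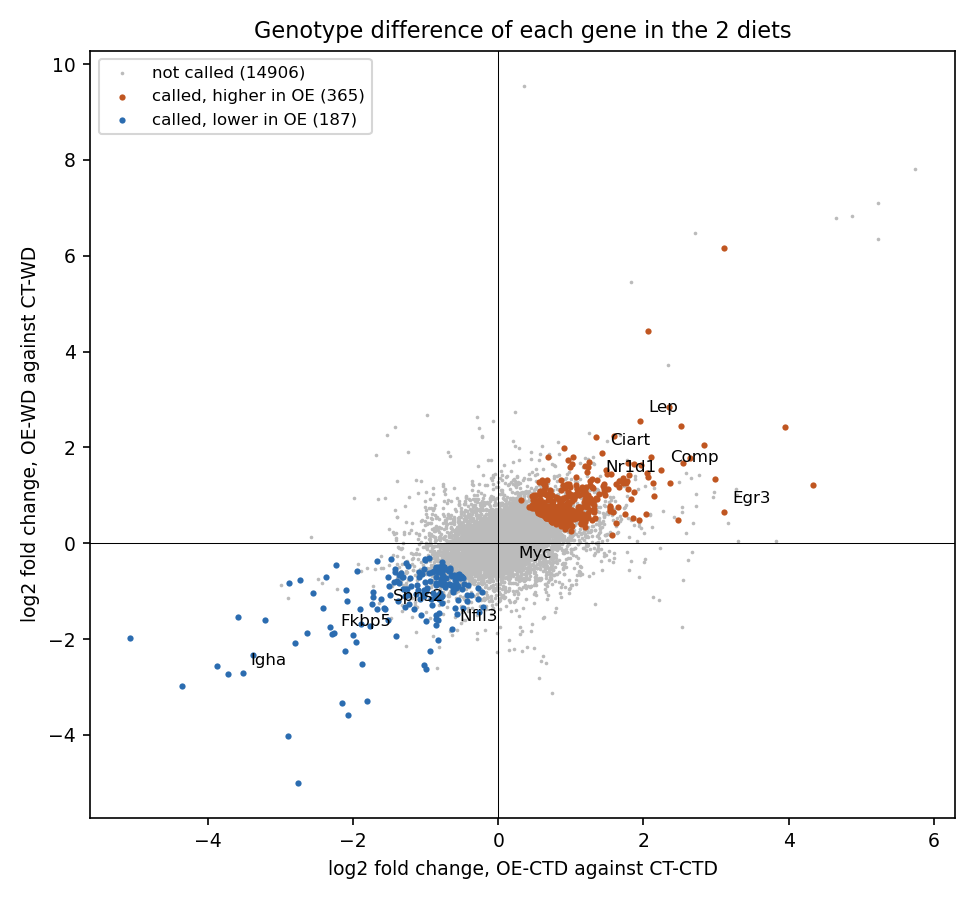
Log2 fold change of OE over CT on CTD (horizontal axis) and on WD (vertical axis) for each gene tested, with the called genes coloured by direction. All 552 called genes lie in the quadrants where both diets have the same sign, which calling on the difference over both diets favours.

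Which libraries were present changed the counts. Without CT-CTD 1 and CT-WD 1, 1223 genes were called, 926 higher and 297 lower, of which 520 were among the 552, and 840 met the rule for both diets. Without OE-CTD 4 and OE-WD 4 the count was 652. With 1 library left out, the lowest count was 346, without CT-CTD 3, then 355, without CT-WD 2, and the highest 998, without CT-WD 1. For both diets the lowest was 249, without CT-WD 2, and the highest 731, without CT-WD 1. The CTD count fell to 64 without CT-CTD 3, to 99 without CT-CTD 2, to 170 without OE-CTD 1, and to 102 without OE-CTD 2 or OE-CTD 3. The WD count was 905 without CT-WD 1. It was 13 without CT-WD 2 or OE-WD 4, 7 without CT-WD 3, 6 without OE-WD 3 and 4 without OE-WD 2, and it was 43 without OE-CTD 2, 53 without OE-CTD 1 and 57 without OE-CTD 3. Those 4, named after their values were seen, were Dbp, Syne1, Spns2 and Eya4. The genes followed over the alternatives were 80: named genes that were called, Myc and the fixed names. That 74 of them were called therefore follows from how they were picked. Genes named only as abundant members of lists without calls are not among the 80. All 74 were also called without CT-CTD 1 and CT-WD 1. The rule for both diets was met by 56 of the 74. The 18 that did not meet it are Aplnr, Chodl, Comp, Dcn, Egr3, Foxo6, Gm10222, Junb, Lgr6, Mt1, Nfil3, Rpl21, Rpl34, Rrm2, Slc22a3, Sox18, Tnmd and Trim63.

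c-Myc is a transcription factor that pairs with Max and binds E-boxes, and Mxd proteins and Mnt compete with it for Max. It is known for driving ribosome biogenesis, nucleotide and polyamine synthesis and entry into the cell cycle. Endothelial cells line the capillaries and make up a small share of the RNA of whole muscle. Myc read 4.45 to 13.3 CPM in CT (median 5.52) and 3.06 to 9.03 CPM in OE (median 5.81). The ranges of the genotypes overlapped in part, and mouse Myc did not pass the test (log2 fold change -0.18, SE 0.23, adjusted p = 0.686). The count table lists mouse genes, so the human transgene has no entry of its own. Of the 12 genes of the Myc, Max and Mxd network tested, 0 were called higher and 0 lower, with a median of -0.032 (-0.073 on CTD and 0.02 on WD). Mnt, a repressor that pairs with Max, passed the adjusted threshold at a log2 fold change of 0.33, under the fold limit, and was singled out after its values were seen.

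Among 35 genes of ribosome biogenesis and classic Myc targets, 0 were called higher and 1 lower, with a median of -0.022 (-0.00015 on CTD and -0.024 on WD). The called gene was Odc1 (chr12:17544794-17551505, plus strand of GRCm38), ornithine decarboxylase, which makes the first polyamine. Odc1 read 381 to 800.3 CPM in CT (median 685) and 203 to 403 CPM in OE (median 277). Within CTD all OE libraries lay below all CT libraries, and on WD OE-WD 1 lay above CT-WD 1 while the rest were apart. Odc1 fell by 1.502 log2 units on CTD and 0.90 on WD (log2 fold change -1.20, SE 0.17, adjusted p = 0.000784), and stayed called without any 1 library. The list of cyclins and proliferation genes had 2 of 20 called higher and 1 lower (median 0.28, 0.14 on CTD and 0.21 on WD). Ccnd1, which codes for cyclin D1 of the step from G1 to S phase, read 2.42 to 8.28 CPM in CT (median 4.94) and 8.08 to 11.7 CPM in OE (median 8.94). The genotypes overlapped on CTD and not on WD (log2 fold change 0.93, SE 0.21, adjusted p = 0.0133). Ccnd2, cyclin D2, rose by 0.62 ± 0.17 log2 units (SE). Rrm2, a subunit of ribonucleotide reductase that serves DNA synthesis, fell by 0.91 ± 0.26 log2 units (SE). Ccnd2 lost its call without CT-CTD 1, CT-CTD 3, CT-WD 2, CT-WD 3, OE-CTD 1, OE-CTD 2, OE-CTD 3, OE-WD 2 or OE-WD 3 (adjusted p up to 0.0786 without CT-CTD 3). Rrm2 lost it without CT-CTD 1, CT-CTD 2, CT-CTD 3, CT-WD 3, OE-CTD 1, OE-CTD 2, OE-CTD 3, OE-CTD 4, OE-WD 1 or OE-WD 3 (up to 0.115 without CT-CTD 3). Ccnd1 shares its locus with a gene on the opposite strand, Oraov1, and the strand setting of the counts is not stated.

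Of 23 endothelial markers tested, 0 were called higher and 1 lower, against 2.36% and 1.21% of all genes, with a median of 0.25 (0.29 on CTD and 0.18 on WD). At any fold change 8 passed the adjusted threshold upward, against 4.93% of all genes, with log2 fold changes that include those of Cdh5 (0.36), the gene whose promoter drives the transactivator, Kdr (0.43), a Vegf receptor, and Tek (0.45), the angiopoietin receptor. These 3 were singled out after their values were seen. Of the 23, 17 had a log2 fold change above 0 and 6 below it, and 14 did not pass the adjusted threshold. In bulk muscle, more cells of a type and more RNA for each cell cannot be told apart. Summed over the list, CT-CTD 1 to 3 held 1119, 1081 and 1161 CPM, CT-WD 1 to 3 1311, 1292 and 1369, OE-CTD 1 to 4 1257, 1231, 1286 and 1166 and OE-WD 1 to 4 1331, 1293, 1363 and 1315. The sums were apart on CTD and overlapped on WD, and the most abundant gene was Aqp1 (mean 376 CPM). No endothelial gene was called higher with edgeR, and without CT-CTD 1 or without CT-WD 1 there was 1, Mmrn2, named after its values were seen. The gene called lower was Sox18, a transcription factor of endothelial and lymphatic development. Sox18 read 11.9 to 38.2 CPM in CT (median 23.8) and 9.54 to 17.2 CPM in OE (median 12.8). Sox18 fell (log2 fold change -0.76, SE 0.21, adjusted p = 0.0366), the genotypes overlapped in both diets, and the call was lost without CT-CTD 2, CT-CTD 3, CT-WD 2, CT-WD 3, OE-CTD 2, OE-CTD 4, OE-WD 2, OE-WD 3 or OE-WD 4 (adjusted p up to 0.105 without CT-WD 3). Markers of pericytes and smooth muscle had 1 of 12 called higher and 0 lower (median 0.10, 0.18 on CTD and 0.12 on WD). It was Cspg4 (log2 fold change 0.72, SE 0.15, adjusted p = 0.00915), the pericyte proteoglycan NG2.

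Angiogenic ligands, receptors and Notch genes had 3 of 26 called higher and 1 lower, with a median of 0.21 (0.23 on CTD and 0.14 on WD). The gene called lower was Spns2 (chr11:72451638-72489904, minus strand), the transporter that exports sphingosine 1-phosphate from endothelial cells. Spns2 read 86.0 to 156 CPM in CT (median 133) and 36.9 to 48.7 CPM in OE (median 45.04). All 8 OE libraries lay below all 6 CT libraries. Spns2 fell by 1.57 log2 units on CTD and 1.38 on WD (log2 fold change -1.47, SE 0.12, adjusted p = 1.01e-05), and its highest adjusted p with 1 library left out was 7.3e-05 without CT-WD 2. On the opposite strand of this locus lies Mybbp1a, at a mean of 107 CPM, and without the strand setting reads of the overlap cannot be assigned to either gene for certain. The ligand apelin and its receptor rose together. Apln read 0.356 to 2.47 CPM in CT (median 1.45) and 1.52 to 4.29 CPM in OE (median 3.24). Apln rose (log2 fold change 1.14, SE 0.31, adjusted p = 0.0344), with the genotypes apart on CTD and overlapping on WD through OE-WD 1. Aplnr, the apelin receptor, rose by 0.92 ± 0.24 log2 units (SE). Angpt1, the ligand that stabilises vessels through Tek, rose by 0.61 ± 0.14 log2 units (SE) with the genotypes apart in both diets. The 3 calls were less firm than that of Spns2. Apln lost its call without CT-CTD 1, CT-CTD 3, CT-WD 2, CT-WD 3, OE-CTD 2, OE-CTD 3, OE-WD 2, OE-WD 3 or OE-WD 4 (adjusted p up to 0.0709 without CT-WD 2), Aplnr without CT-CTD 1, CT-CTD 3, CT-WD 2, CT-WD 3, OE-CTD 1, OE-CTD 2 or OE-WD 2 (up to 0.0726 without CT-WD 2), and Angpt1, through the fold limit, without CT-CTD 3, CT-WD 3 or OE-CTD 4, its adjusted p staying at or under 0.0409. The list's number of genes called higher was 0 without CT-CTD 3 or CT-WD 3, 1, Angpt1, without CT-WD 2 or OE-CTD 2 and 7 without CT-WD 1.

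The broadest change by list was in the extracellular matrix. Of 28 genes of collagens, basement membrane, crosslinking enzymes and matrix proteases, 22 were called higher, against 2.36% of all genes, and 0 lower. The rule for both diets was met by 18 of the 28, against 1.78% of all genes. Among all genes called higher, 275 of 365 met it. The list's median was 0.82 (0.95 on CTD and 0.73 on WD). Col6a2, a chain of the microfibrillar collagen around muscle fibres, read 32.0 to 66.9 CPM in CT (median 38.2) and 57.1 to 129 CPM in OE (median 97.6). The genotypes were apart on CTD, and on WD CT-WD 1 lay above OE-WD 1. Col6a2 rose (log2 fold change 1.14, SE 0.18, adjusted p = 0.00189). Loxl2, an enzyme that crosslinks collagen, rose by 1.09 ± 0.18 log2 units (SE, adjusted p = 0.00274). Col1a1, the main fibrillar collagen chain, read 49.0 to 316 CPM in CT (median 71.1) and 194 to 616 CPM in OE (median 284). CT-WD 1 was highest in CT and lay inside the OE range. Col1a1 rose (log2 fold change 1.53, SE 0.38, adjusted p = 0.0203), and Col1a2, its partner chain, by 1.32 ± 0.36 log2 units (SE). Col1a1 lost its call without CT-CTD 2, CT-CTD 3 or OE-WD 2 (adjusted p up to 0.0559 without CT-CTD 3), and Col1a2 without CT-CTD 2, CT-CTD 3, CT-WD 2, CT-WD 3, OE-CTD 1, OE-CTD 2, OE-CTD 3, OE-WD 2 or OE-WD 3 (up to 0.0837 without CT-CTD 3). With 1 library left out, 15 to 25 genes of the list were called higher and 0 lower, with medians of 0.74 to 1.05. Without CT-CTD 1 and CT-WD 1, 25 genes of the list were called higher, with a median of 1.08. Col1a1 then stood at a log2 fold change of 2.33 and Col6a2 at 1.29. Summed over the list, CT-CTD 1 to 3 held 1487, 1462 and 1323 CPM, CT-WD 1 to 3 2692, 1224 and 1375, OE-CTD 1 to 4 2815, 3189, 3074 and 2352 and OE-WD 1 to 4 2147, 4360.3, 2702 and 2790.5. Its most abundant gene was Sparc (mean 348 CPM). CT-WD 1 read within the OE range and all other CT libraries below it.

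Fibroblast and fibro-adipogenic markers had 6 of 12 called higher and 0 lower, against 2.36% and 1.21% of all genes. Their median was 0.61 (0.78 on CTD and 0.44 on WD). Summed over these markers, CT-CTD 1 to 3 held 1054, 868 and 754 CPM, CT-WD 1 to 3 1681, 924 and 919, OE-CTD 1 to 4 1544, 1858, 1758 and 1090.4 and OE-WD 1 to 4 1425, 2357, 1649.9 and 1146. The most abundant was Gsn (mean 731 CPM). Col15a1, a collagen of the zone between basement membrane and stroma (chr4:47208161-47313167, plus strand), read 19.8 to 33.7 CPM in CT (median 23.1) and 40.5 to 84.1 CPM in OE (median 60.3). Every OE library lay above all 6 CT libraries, CT-WD 1 included. Col15a1 rose by 1.26 log2 units on CTD and 1.22 on WD (log2 fold change 1.24, SE 0.16, adjusted p = 0.000529). Fbn1, the microfibril protein fibrillin, read 16.3 to 42.7 CPM in CT (median 19.7) and 34.8 to 71.6 CPM in OE (median 61.2). Only OE-WD 1 lay under the highest CT library, CT-WD 1, and Fbn1 rose (log2 fold change 1.37, SE 0.21, adjusted p = 0.00157). Pcolce, an enhancer of procollagen processing, rose by 0.84 ± 0.16 log2 units (SE), and Dcn, the small proteoglycan decorin, by 0.76 ± 0.21 log2 units (SE). Dcn lost its call without CT-CTD 2, CT-CTD 3, CT-WD 2, CT-WD 3, OE-CTD 1, OE-CTD 2, OE-CTD 3, OE-WD 2 or OE-WD 3 (adjusted p up to 0.0891 without CT-CTD 3). The list's count was 3, Col15a1, Fbn1 and Pcolce, without CT-CTD 3, CT-WD 2, CT-WD 3, OE-CTD 1, OE-CTD 2, OE-CTD 3, OE-WD 2 or OE-WD 3 and 10 without CT-WD 1. When CT-CTD 1 and CT-WD 1 were left out, 10 were called higher and 0 lower, median 0.82. The part of fibroblast number in the matrix change was not tested.

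Tendon genes had 5 of 10 called higher and 0 lower, against 2.36% and 1.21% of all genes. Their median was 1.37 (1.48 on CTD and 1.29 on WD). Comp, a cartilage and tendon matrix protein, read 2.09 to 35.2 CPM in CT (median 4.04) and 15.3 to 69.3 CPM in OE (median 32.9). CT-WD 1 lay inside the OE range, and Comp rose (log2 fold change 1.86, SE 0.56, adjusted p = 0.0491). Tnmd, tenomodulin of mature tenocytes, read 1.33 to 13.7 CPM in CT (median 2.43) and 8.20 to 23.7 CPM in OE (median 13). Again CT-WD 1 lay inside the OE range, and Tnmd rose (log2 fold change 1.499, SE 0.43, adjusted p = 0.0401). Cilp2, a cartilage matrix protein, rose by 1.79 ± 0.50 log2 units (SE), and Tnc, the matrix glycoprotein tenascin C, by 1.23 ± 0.34 log2 units (SE). The fifth called gene was Thbs4, a thrombospondin of the tendon matrix, at 1.13 log2 units, named like Scx and Mkx after its values were seen. Of the defining markers, Scx, the transcription factor of tendon progenitors, stood at a log2 fold change of 0.17 (adjusted p = 0.546) and Mkx, another tendon factor, at 1.07 (adjusted p = 0.188), and neither was called. For the sum of the list, CT-CTD 1 to 3 held 263, 111 and 179.6 CPM, CT-WD 1 to 3 553, 89.1 and 114, OE-CTD 1 to 4 456, 693, 559 and 343 and OE-WD 1 to 4 463, 980.4, 639 and 341, and the most abundant gene was Fmod (mean 192 CPM). Without CT-CTD 2 or any 1 of CT-CTD 3, CT-WD 2, CT-WD 3, OE-CTD 1, OE-CTD 2, OE-CTD 3, OE-WD 2 or OE-WD 3, 1 tendon gene was called, Thbs4, and without CT-WD 1 there were 9. Cilp2, Tnc and Tnmd lost their calls without any of those same 9 libraries (adjusted p up to 0.0885 without OE-WD 2, 0.0828 without CT-CTD 2 and 0.0989 without CT-CTD 3). Comp lost its call without any of the 9 and also without CT-CTD 1 or OE-WD 1 (up to 0.111 without CT-CTD 3). When CT-CTD 1 and CT-WD 1 were left out, 9 were called higher and 0 lower, median 2.42. The part of tendon tissue in the matrix change was not tested.

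Macrophage markers had 1 of 12 called higher and 0 lower, with a median of 0.48 (0.84 on CTD and 0.12 on WD). It was Folr2, a folate receptor of resident macrophages (log2 fold change 1.03, SE 0.29, adjusted p = 0.0383), at 0.567 CPM (median) in CT and 1.41 in OE. Of the defining markers, Adgre1 stood at a log2 fold change of 1.08 (adjusted p = 0.0795) and Csf1r, the receptor of the macrophage growth factor, at 0.71 (adjusted p = 0.0691), both named after their values were seen. The call of Folr2 was lost without CT-CTD 2, CT-CTD 3, CT-WD 2, CT-WD 3, OE-CTD 1, OE-CTD 2, OE-CTD 4, OE-WD 2 or OE-WD 4 (adjusted p up to 0.0922 without CT-WD 2), and a gene on the opposite strand overlaps it. For their sum, CT-CTD 1 to 3 held 99.0, 59.1 and 53.7 CPM, CT-WD 1 to 3 160.02, 78.9 and 64.2, OE-CTD 1 to 4 98.7, 123, 154 and 98.4 and OE-WD 1 to 4 93.2, 159.6, 97.2 and 103, with Lyz2 (mean 28.1 CPM) most abundant. CT-WD 1 was the highest of the 14. Without it 7 markers were called, and without CT-CTD 1 and CT-WD 1, 10 were called higher and 0 lower, median 0.87. Epidermal and hair follicle genes had 0 of 11 called higher with edgeR and 0 lower, with a median of 0.97 (0.61 on CTD and 0.95 on WD). Without CT-WD 1 there was 1, Lor, and without OE-WD 1 or without OE-WD 2 there were 2, Krt25 and Tchh, all named after their values were seen. For the sum of these genes, CT-CTD 1 to 3 held 54.7, 5.48 and 14.6 CPM, CT-WD 1 to 3 114, 11.98 and 12.8, OE-CTD 1 to 4 24.0, 45.5, 48.1 and 3.47 and OE-WD 1 to 4 21.1, 97.0, 152 and 84.4. The sums ranged widely within each genotype, with Krt5 (mean 10.1 CPM) most abundant and at 0 in OE-CTD 4. Without CT-CTD 1 and CT-WD 1, 6 were called higher and 0 lower, median 2.73. Their part in the matrix and macrophage values was not tested.

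**Figure D3:**
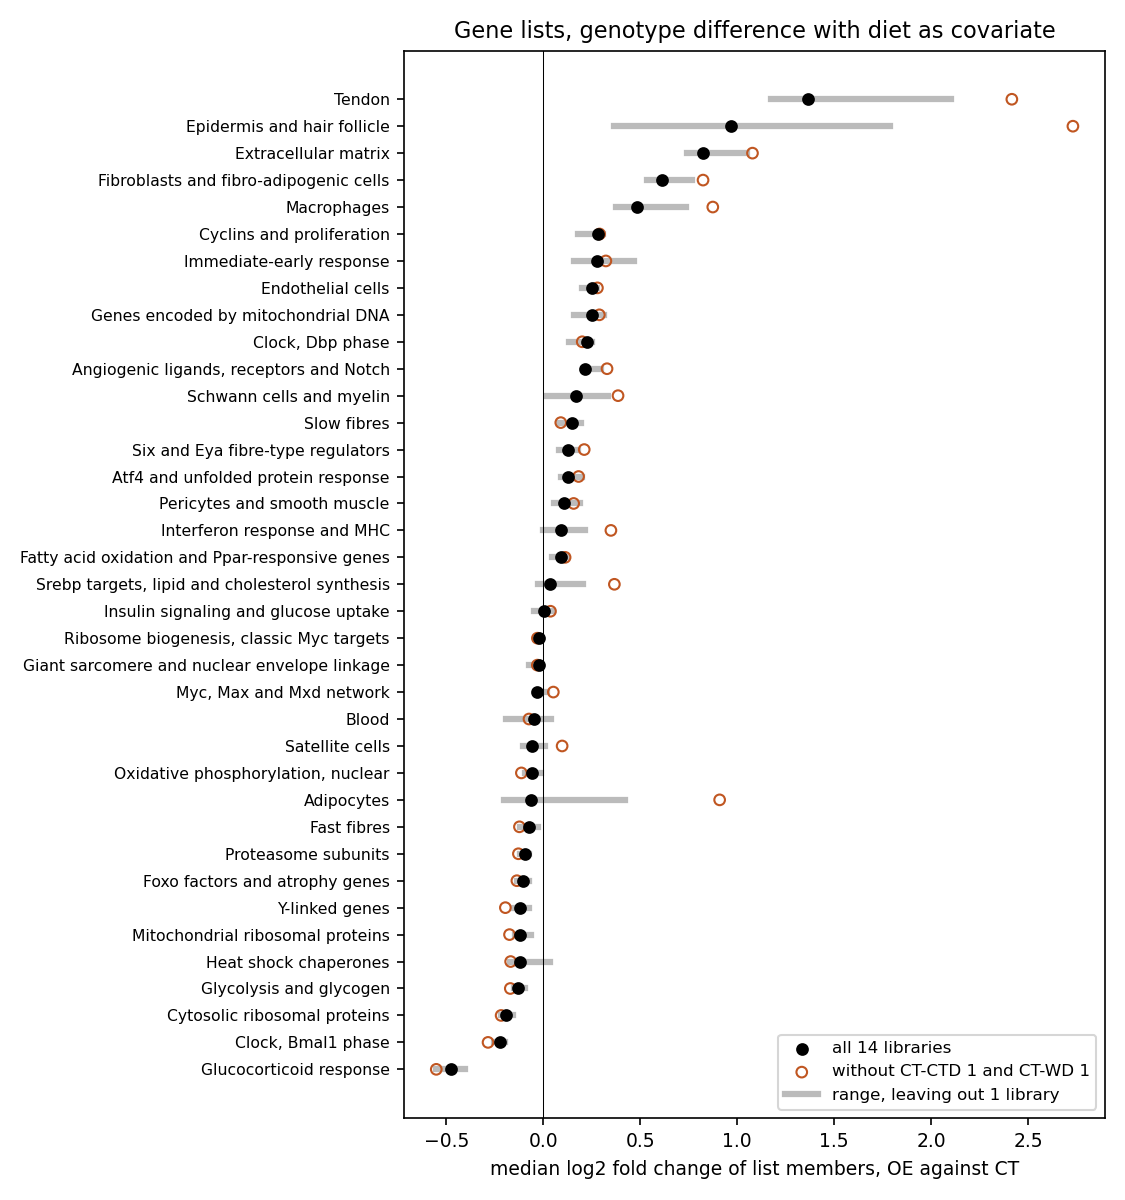
Median log2 fold change of OE over CT for each gene list, on all 14 libraries and without CT-CTD 1 and CT-WD 1 (horizontal axis, log2), with the lists down the vertical axis and bars for the range when 1 library is left out. On all 14 libraries the tendon, epidermis, matrix and fibroblast lists lie farthest to the right, tendon at 1.37 and matrix at 0.82.

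Among all genes, 1 gene of the nuclear envelope, known for its part in muscle fibres, gave the smallest adjusted p. Syne1 (chr10:5020917-5551482, minus strand) codes for nesprin 1, a giant protein that links nuclei to the cytoskeleton and is needed to space nuclei in fibres. Syne1 read 104 to 134 CPM in CT (median 124) and 52.7 to 68.7 CPM in OE (median 56.3). All 8 OE libraries lay below all 6 CT libraries. Syne1 fell by 1.10 log2 units on CTD and 0.97 on WD (log2 fold change -1.04, SE 0.077, adjusted p = 4.29e-06), and its highest adjusted p with 1 library left out was 3.25e-05 without OE-CTD 2. The list of giant sarcomere proteins and nuclear envelope linkage had 0 of 25 called higher and 1 lower, Syne1, with a median of -0.025 (-0.041 on CTD and -0.016 on WD). Without CT-WD 3, 1 was called higher, Xirp1, named after its values were seen. The list of Eya coactivators and their sine oculis partners, which set fast fibre genes, had 1 of 17 called higher and 1 lower (median 0.13, 0.11 on CTD and 0.11 on WD). Eya4, a coactivator of these factors (chr10:23102963-23350786, minus strand), read 54.2 to 88.0 CPM in CT (median 65.4) and 33.8 to 44.9 CPM in OE (median 40.8). The genotypes did not overlap over both diets, and Eya4 fell by 0.66 log2 units on CTD and 0.87 on WD (log2 fold change -0.77, SE 0.079, adjusted p = 0.000146). Dach1, a repressor that works with Eya proteins, rose by 0.71 ± 0.19 log2 units (SE). Dach1 lost its call without CT-CTD 3, CT-WD 2, CT-WD 3, OE-CTD 2 or OE-WD 2 (adjusted p up to 0.0698 without CT-CTD 3).

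Slow fibre genes had 0 of 12 called higher and 0 lower with edgeR (median 0.15, 0.24 on CTD and -0.022 on WD), against 2.36% and 1.21% of all genes, and at any fold change 2 passed the adjusted threshold upward, against 4.93%. Fast fibre genes had 0 of 14 higher and 0 lower (median -0.076, 0.014 on CTD and -0.077 on WD). Myh7, the slow myosin heavy chain, read 844 to 1298 CPM in CT (median 1020.4) and 1125 to 1648 CPM in OE (median 1260.5), and the genotypes overlapped. Satellite cell and muscle regulator genes had 1 of 10 called higher and 2 lower (median -0.056, -0.037 on CTD and 0.00067 on WD). Myod1, the myogenic determination factor, read 24.6 to 42.6 CPM in CT (median 36.1) and 19.3 to 28.8 CPM in OE (median 22.4). The genotypes were apart within each diet, and Myod1 fell (log2 fold change -0.62, SE 0.11, adjusted p = 0.00374). Musk, the receptor kinase that organises the neuromuscular junction, read 20.6 to 62.4 CPM in CT (median 39.2) and 13.9 to 28.9 CPM in OE (median 17.2). The ranges overlapped, and Musk fell by 0.99 log2 units on CTD and 0.93 on WD (log2 fold change -0.96, SE 0.23, adjusted p = 0.019). Chodl rose by 0.67 ± 0.19 log2 units (SE). Musk lost its call without CT-CTD 3 or CT-WD 3 (adjusted p up to 0.0589 without CT-CTD 3), and Myod1 fell under the fold limit without CT-CTD 2, CT-WD 3 or OE-WD 2, to -0.52 at the least. Chodl lost its call without CT-CTD 2, CT-CTD 3, CT-WD 2, CT-WD 3, OE-CTD 2, OE-CTD 3, OE-WD 1, OE-WD 2 or OE-WD 3 (up to 0.0901 without CT-WD 2). The list's count of genes called higher was 3 without CT-WD 1 (Chodl, Heyl and Pax7), 2 without CT-CTD 1 (Chodl and Heyl), and 0 without CT-CTD 3, CT-WD 2, CT-WD 3, OE-CTD 2, OE-WD 1 or OE-WD 3. The count called lower was 1 without CT-CTD 2, CT-CTD 3 or OE-WD 2 and 0 without CT-WD 3.

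**Figure D4:**
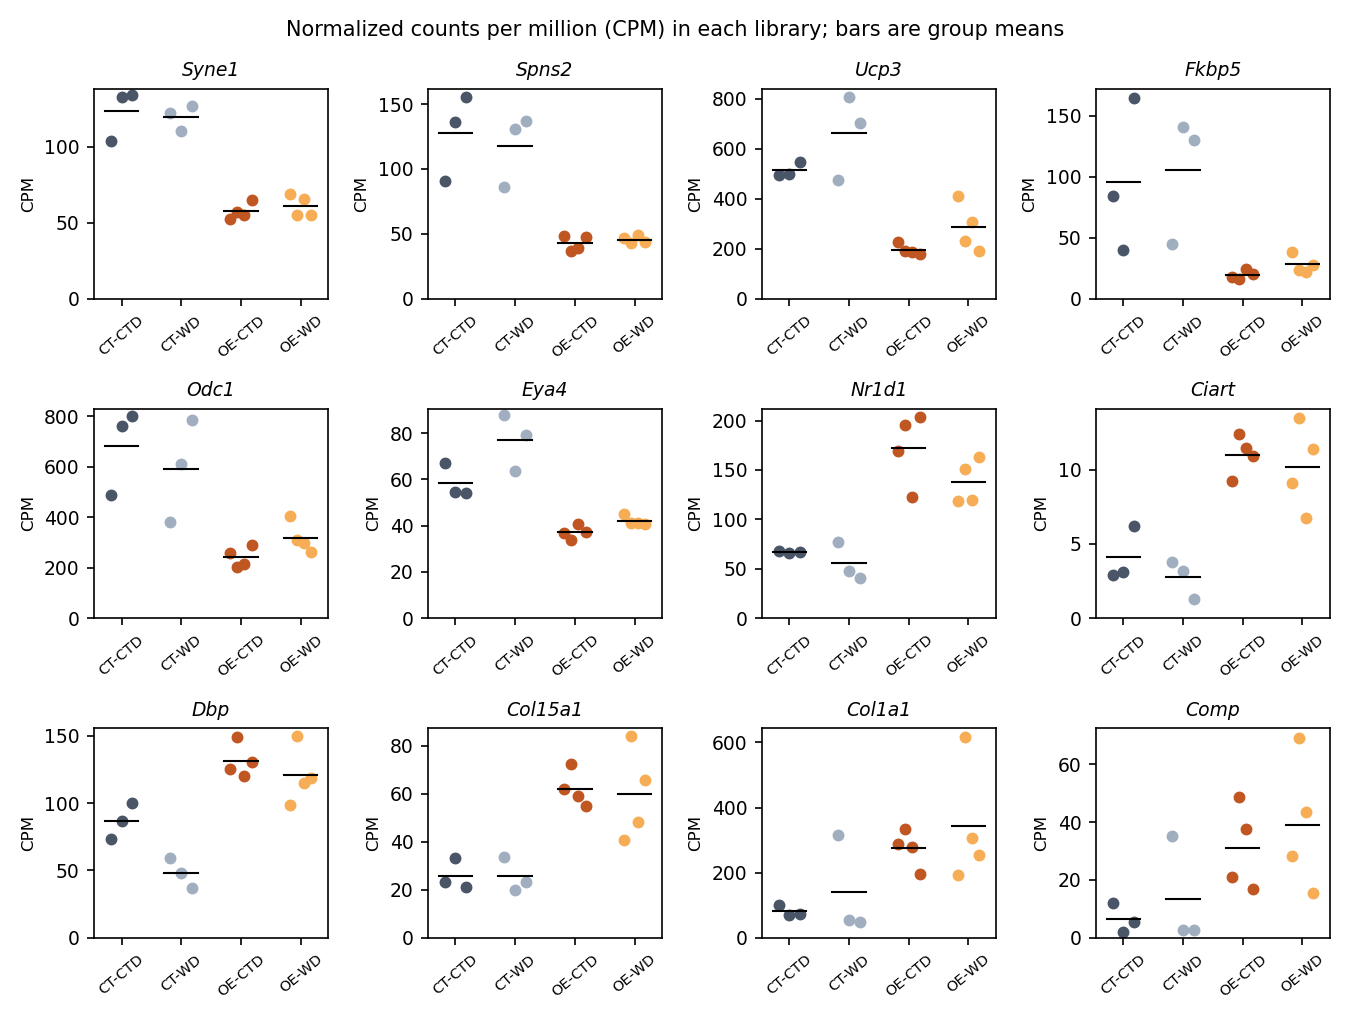
CPM of selected named genes in each library (vertical axis, CPM from 0), with points coloured by group and a bar at each group's mean. The OE points of Syne1, at 52.7 to 68.7 CPM, lie below all CT points in both diets.

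The circadian clock runs in muscle as a loop in which Bmal1 and Clock bind E-boxes and switch on repressors and output genes such as Nr1d1 and Dbp, which peak hours before Bmal1 itself. Nr1d1 represses Bmal1 and Nfil3, and Dbp and Nfil3 compete for D-boxes. Genes of the Dbp phase had 3 of 11 called higher and 0 lower, with a median of 0.23 (0.084 on CTD and 0.39 on WD). Nr1d1 read 40.7 to 77.4 CPM in CT (median 66.5) and 119 to 204 CPM in OE (median 157). All 8 OE libraries lay above all 6 CT libraries, and Nr1d1 (chr11:98767932-98775333, minus strand) rose by 1.37 log2 units on CTD and 1.32 on WD (log2 fold change 1.34, SE 0.14, adjusted p = 0.000146). Dbp read 37.3 to 99.8 CPM in CT (median 66.5) and 98.3 to 150.3 CPM in OE (median 123). The genotypes were apart within each diet, and Dbp (chr7:45705088-45710203, plus strand) rose by 0.60 log2 units on CTD and 1.32 on WD (log2 fold change 0.95, SE 0.14, adjusted p = 0.00124). Ciart read 1.29 to 6.23 CPM in CT (median 3.16) and 6.76 to 13.5 CPM in OE (median 11.2). These did not overlap either, and Ciart (chr3:95878503-95882251, minus strand), a repressor of Bmal1 and Clock, rose by 1.42 log2 units on CTD and 1.88 on WD (log2 fold change 1.64, SE 0.23, adjusted p = 0.000787). The 3 calls held without any 1 library. Not all genes of the phase moved: Per2, a repressor that binds Cry proteins, stood at a log2 fold change of -0.30 (adjusted p = 0.122) and was chosen after its values were seen. Nr1d1 overlaps Thra, Dbp overlaps Sphk2 and Ciart overlaps C920021L13Rik, each on the opposite strand, so part of the reads may belong to either gene.

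Genes of the opposite phase had 0 of 6 called higher and 1 lower, with a median of -0.22 (-0.16 on CTD and -0.30 on WD). Nfil3, the repressor at D-boxes, read 30.6 to 226 CPM in CT (median 34.4) and 17.6 to 43.4 CPM in OE (median 25.2). OE lay below CT on CTD, and on WD the ranges overlapped through CT-WD 1. Nfil3 stood at a log2 fold change of -0.65 on CTD and -1.80 on WD, and fell over both (log2 fold change -1.25, SE 0.32, adjusted p = 0.0239) without meeting the rule for both diets. Its call was lost without OE-WD 2 (adjusted p = 0.0539) or OE-WD 3, and its log2 fold change was -0.78 without CT-WD 3. Over the alternatives that keep the names as labelled its adjusted p lay between 0.00026 and 0.103. Arntl, the gene of Bmal1, stood at a log2 fold change of 0.10 on CTD and -1.13 on WD (adjusted p = 0.143), and was chosen after its values were seen. The time of day of harvest is not given for any library, so genotype and time of harvest cannot be told apart.

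Because these output genes rose together, their promoters were read for the letters that Bmal1, Clock and Myc are known to bind, the E-box CACGTG, which reads the same on both strands. The D-box TTANGTAA was searched on both strands too. RefSeq sequences on GRCm38.p6, 250 bases before to 50 after each start, were matched by symbol for 11033 of the tested symbols. Counted by promoter, the E-box occurs in 6.02% of all 32851 and in 8.03% of those of the tested genes matched. Counted by gene, it occurs in 6.86% of all and in 9.69% of the tested genes matched. Among called genes with a match it occurs in 20 of 253 higher in OE (7.91%) and in 11 of 116 lower in OE (9.48%). Of the Dbp phase 10 of 11 matched, and 4 hold an E-box. Counted by gene, the D-box occurs in 2.44% of all, in 1.62% of the tested genes matched and, in that phase, in Per3 alone. The promoters of the 3 genes called are shown 5′ to 3′ on the gene's strand, without the bases inside the gene, at chr3:95882252-95882478 (minus strand), chr7:45704997-45705087 (plus strand) and chr11:98775378-98775627 (minus strand). Capitals mark E-boxes, 3 for Ciart and 0 for Dbp and Nr1d1 in these windows.
Ciart: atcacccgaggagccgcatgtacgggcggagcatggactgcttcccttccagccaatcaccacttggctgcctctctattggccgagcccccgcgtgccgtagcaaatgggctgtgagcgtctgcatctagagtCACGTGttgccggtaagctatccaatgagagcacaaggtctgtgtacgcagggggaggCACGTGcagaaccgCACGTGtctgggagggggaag
Dbp: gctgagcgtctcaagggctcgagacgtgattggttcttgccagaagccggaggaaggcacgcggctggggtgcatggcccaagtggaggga
Nr1d1: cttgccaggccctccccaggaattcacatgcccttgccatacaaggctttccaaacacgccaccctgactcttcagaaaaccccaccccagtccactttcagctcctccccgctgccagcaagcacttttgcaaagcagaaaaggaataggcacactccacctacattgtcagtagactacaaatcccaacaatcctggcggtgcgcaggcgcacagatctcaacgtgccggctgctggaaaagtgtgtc

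Glucocorticoids act through a nuclear receptor that switches on genes of fasting metabolism and of muscle protein breakdown, Fkbp5 among the most sensitive. Of 22 genes of the response, 0 were called higher and 5 lower, with a median of -0.48 (-0.23 on CTD and -0.57 on WD). Fkbp5, a cochaperone that restrains the receptor (chr17:28399094-28517527, minus strand), read 39.9 to 165 CPM in CT (median 107) and 16.5 to 38.5 CPM in OE (median 22.9). The highest OE library lay below all 6 CT libraries, and Fkbp5 fell by 2.29 log2 units on CTD and 1.91 on WD (log2 fold change -2.10, SE 0.28, adjusted p = 0.000529). Zbtb16, a zinc finger factor, fell by 1.02 log2 units on CTD and 0.53 on WD (log2 fold change -0.78, SE 0.12, adjusted p = 0.00165), with the genotypes apart on CTD and overlapping on WD. Mt1, a metal-binding metallothionein, fell by 0.83 ± 0.19 log2 units (SE) and Fam107a, an actin-binding protein, by 0.79 ± 0.19 log2 units (SE). These calls, and that of Pdk4, held without any 1 library and without CT-CTD 1 and CT-WD 1, where 7 genes of the list were called lower and the median was -0.55. In other alternatives that keep the names, Zbtb16 lost its call without a diet term (adjusted p = 0.122), Mt1 with a replicate block within diet (adjusted p = 0.0628), and Fam107a with that block and on log2 FPKM with either constant added (up to 0.0649). Tsc22d3, a target that restrains inflammation, stood at a log2 fold change of -0.51 (adjusted p = 0.028) and Sgk1, a kinase, at -0.44 (adjusted p = 0.0191), both under the fold limit and singled out after their values were seen.

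Foxo factors switch on the ubiquitin ligases of muscle atrophy, and insulin signaling holds them out of the nucleus. Of 20 genes in this group, 1 was called higher and 3 lower, with a median of -0.10 (-0.047 on CTD and -0.19 on WD). Fbxo32, the ligase atrogin 1, read 469 to 976 CPM in CT (median 631) and 241 to 610.5 CPM in OE (median 298). On CTD the genotypes were apart, and on WD OE-WD 1 lay above CT-WD 1. Fbxo32 fell by 1.04 log2 units on CTD and 1.09 on WD (log2 fold change -1.06, SE 0.16, adjusted p = 0.0015). Trim63, the ligase MuRF1, read 259 to 948 CPM in CT (median 371) and 218 to 398 CPM in OE (median 243). The CT libraries CT-WD 2 and CT-WD 3 were highest, and the genotypes overlapped on CTD. Trim63 stood at a log2 fold change of -0.27 on CTD and -1.43 on WD, and fell over both (log2 fold change -0.87, SE 0.22, adjusted p = 0.0232) without meeting the rule for both diets. Eif4ebp1, an inhibitor of translation start, read 42.7 to 61.5 CPM in CT (median 50.3) and 31.3 to 40.6 CPM in OE (median 33.8). These ranges did not overlap, and Eif4ebp1 fell (log2 fold change -0.61, SE 0.085, adjusted p = 0.000742). Foxo6 itself rose by 0.68 ± 0.18 log2 units (SE). Trim63 lost its call without CT-WD 2, CT-WD 3, OE-WD 2 or OE-WD 3 (adjusted p up to 0.0587 without CT-WD 2), Foxo6 without CT-CTD 1, CT-CTD 3, CT-WD 3, OE-CTD 3 or OE-WD 2 (up to 0.0724 without CT-CTD 3), and Eif4ebp1 fell under the fold limit without CT-WD 2 or CT-WD 3, at -0.56 at the least. The list's number of genes called lower was 1, Fbxo32, without CT-WD 2 or CT-WD 3 and 5 without CT-WD 1, where Foxo1 and Mstn joined. Insulin signaling and glucose uptake genes had 0 of 20 called higher and 0 lower with edgeR (median 0.0019, -0.042 on CTD and -0.0048 on WD), and 1 was called lower without CT-WD 1 (Tbc1d1) and without CT-WD 2, CT-WD 3 or OE-WD 1 (Rabif).

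Immediate-early genes, which respond within minutes to contraction, growth factors or handling of tissue, had 2 of 23 called higher and 0 lower, with a median of 0.28 (0.79 on CTD and -0.14 on WD). Egr3, a zinc finger factor, read 0.335 to 4.09 CPM in CT (median 1.26) and 1.82 to 11.4 CPM in OE (median 4.90). On CTD the genotypes were apart, and on WD they overlapped. Egr3 stood at a log2 fold change of 3.11 on CTD and 0.66 on WD (log2 fold change 1.77, SE 0.50, adjusted p = 0.0377), and its interaction did not pass (adjusted p = 0.825). Junb, a subunit of AP-1 that overlaps Prdx2 on the opposite strand, stood at a log2 fold change of 1.56 on CTD and 0.18 on WD (log2 fold change 0.84, SE 0.25, adjusted p = 0.0473). The list's count was 4 without CT-WD 1 (Ctgf, Egr3, Ier2 and Junb) or CT-WD 3 (Btg2, Ctgf, Junb and Nr4a2), 1 without CT-CTD 1 (Ctgf), OE-WD 2 (Egr3) or OE-WD 3 (Junb), and 0 without CT-CTD 2, CT-CTD 3, CT-WD 2, OE-CTD 1, OE-CTD 2 or OE-CTD 3. Egr3 lost its call without CT-CTD 1, CT-CTD 2, CT-CTD 3, CT-WD 2, CT-WD 3, OE-CTD 1, OE-CTD 2, OE-CTD 3 or OE-WD 3 (adjusted p up to 0.105 without CT-CTD 3). Junb lost it without CT-CTD 1, CT-CTD 2, CT-CTD 3, CT-WD 2, OE-CTD 1, OE-CTD 2, OE-CTD 3, OE-WD 1 or OE-WD 2 (up to 0.124 without CT-CTD 2).

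Fatty acid oxidation and Ppar-responsive genes had 0 of 35 called higher and 2 lower, with a median of 0.089 (0.17 on CTD and -0.0098 on WD). Ucp3, an uncoupling protein of the muscle mitochondrial membrane (chr7:100472990-100486432, plus strand), read 476 to 808 CPM in CT (median 523) and 181 to 412 CPM in OE (median 209). No OE library reached the lowest CT library, and Ucp3 fell by 1.38 log2 units on CTD and 1.21 on WD (log2 fold change -1.30, SE 0.15, adjusted p = 0.000245). Pdk4, the kinase that closes pyruvate dehydrogenase in fasting, read 2164 to 3703 CPM in CT (median 3071) and 1105 to 2521 CPM in OE (median 1425). Apart within each diet, the genotypes overlapped over both, and Pdk4 fell by 0.83 log2 units on CTD and 1.08 on WD (log2 fold change -0.96, SE 0.16, adjusted p = 0.00261). Both calls held without any 1 library. At any fold change 7 of the 35 passed the adjusted threshold upward, against 4.93% of all genes, and 3 downward, against 3.36%. Those upward include Decr1 at 0.38 log2 units and Hadha at 0.28, enzymes of fat oxidation, both singled out after their values were seen.

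Glycolysis and glycogen genes had 1 of 25 called higher and 1 lower, with a median of -0.13 (-0.059 on CTD and -0.18 on WD). Pfkfb3, the enzyme that makes the activator of phosphofructokinase, read 134 to 374 CPM in CT (median 194) and 337 to 569 CPM in OE (median 472). CT-CTD 2 overlapped OE on CTD, and on WD the genotypes were apart. Pfkfb3 rose (log2 fold change 1.04, SE 0.21, adjusted p = 0.0074). Ppp1r3c, a subunit that brings a phosphatase to glycogen, read 240.4 to 989 CPM in CT (median 494) and 189 to 394 CPM in OE (median 221). Ppp1r3c fell by 1.04 log2 units on CTD and 1.06 on WD (log2 fold change -1.05, SE 0.23, adjusted p = 0.011), with CT-WD 1 inside the OE range on WD. Srebp targets of lipid and cholesterol synthesis had 1 of 23 called higher and 0 lower (median 0.035, -0.087 on CTD and 0.25 on WD). Scd2, a fatty acid desaturase, read 18.3 to 43.7 CPM in CT (median 28.9) and 48.8 to 71.3 CPM in OE (median 54.5). All OE libraries lay above all CT libraries, and Scd2 rose (log2 fold change 0.93, SE 0.17, adjusted p = 0.0049). The Srebp count was 2 without CT-CTD 2 (Scd2 and Srebf1, the latter named after its values were seen), and without CT-CTD 1 and CT-WD 1, 8 were called higher and 0 lower, median 0.37. Adipocyte genes had 1 of 11 called higher and 1 lower (median -0.063, -0.26 on CTD and 0.44 on WD). Summed, CT-CTD 1 to 3 held 1079.6, 656 and 715 CPM, CT-WD 1 to 3 853, 989 and 888, OE-CTD 1 to 4 599, 599, 727 and 528 and OE-WD 1 to 4 643, 671, 585 and 690.9, with Plin4 (mean 378 CPM) most abundant. Lep, the satiety hormone leptin of fat cells, read 0.356 to 8.16 CPM in CT (median 1.76) and 3.07 to 25.97 CPM in OE (median 11.2). The genotypes overlapped on CTD and were apart on WD, and Lep rose (log2 fold change 2.21, SE 0.49, adjusted p = 0.012). Plin4, a coat protein of lipid droplets that muscle fibres also express, fell by 0.63 ± 0.13 log2 units (SE), under the fold limit without CT-CTD 1, CT-WD 2 or OE-WD 3, and was joined by Cfd without CT-WD 3. Defining fat cell markers were not called: Adipoq stood at a log2 fold change of 0.16 (adjusted p = 0.838) and Plin1 at 0.40 (adjusted p = 0.588), both chosen after their values were seen. In the fit without CT-CTD 1 and CT-WD 1, 2 were called higher and 1 lower, median 0.91. The part of fat cells in the value of Lep was not tested.

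Genes of protein synthesis and turnover had few calls. Cytosolic ribosomal protein genes had 0 of 84 called higher and 2 lower, with a median of -0.19 (-0.095 on CTD and -0.31 on WD), and 21 passed the adjusted threshold downward at any fold change, against 3.36% of all genes. The called genes were Rpl21 (log2 fold change -0.73, SE 0.20, adjusted p = 0.0359) and Rpl34 (log2 fold change -0.76, SE 0.21, adjusted p = 0.0336), at medians of 22.6 and 3.17 CPM in CT, where Rplp0 (mean 635 CPM) was most abundant. Reads of ribosomal protein genes map to many processed copies, so the counts of these 2 are uncertain. Rpl21 lost its call without CT-CTD 2, CT-WD 2, OE-CTD 1, OE-CTD 2, OE-WD 1, OE-WD 2, OE-WD 3 or OE-WD 4 (adjusted p up to 0.0928 without CT-CTD 2) and Rpl34 without CT-CTD 1, CT-CTD 2, CT-CTD 3, CT-WD 3, OE-CTD 2, OE-CTD 3, OE-WD 2 or OE-WD 3 (up to 0.0829 without CT-WD 3). Mitochondrial ribosomal proteins had 0 of 77 called higher and 0 lower (median -0.12, -0.02 on CTD and -0.20 on WD). Proteasome subunits had 0 of 37 called higher and 0 lower (median -0.10, -0.057 on CTD and -0.18 on WD). Heat shock chaperones had 0 of 20 called higher and 0 lower (median -0.12, 0.11 on CTD and -0.30 on WD). CT-WD 3 summed to 11409 CPM for this list, the other libraries to 5937 to 7373, and without CT-WD 3 the median was 0.034. Genes of Atf4 and the unfolded protein response had 1 of 19 called higher and 0 lower (median 0.13, 0.24 on CTD and 0.051 on WD). Pdia4, a disulfide isomerase of the endoplasmic reticulum, read 8.75 to 13.8 CPM in CT (median 10.8) and 15.1 to 21.4 CPM in OE (median 16.2). The genotypes did not overlap, and Pdia4 rose (log2 fold change 0.64, SE 0.10, adjusted p = 0.00173), under the fold limit without CT-WD 2 (0.57).

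Oxidative phosphorylation genes of the nucleus had 0 of 87 called higher and 0 lower with edgeR (median -0.056, 0.092 on CTD and -0.20 on WD). Genes encoded by mitochondrial DNA had 0 of 13 called higher and 0 lower, with a median of 0.25 (0.26 on CTD and 0.22 on WD), or 0.041 without OE-CTD 4 and OE-WD 4, and 1 was called higher without CT-WD 1 (mt-Nd3) and 1 lower without OE-CTD 4 and OE-WD 4 (mt-Co3). Interferon and MHC genes had 0 of 25 called higher and 0 lower (median 0.092, 0.049 on CTD and 0.10 on WD), with 1 called higher without CT-WD 1 (H2-Ab1) and 4 without CT-CTD 1 and CT-WD 1 (Cd74, H2-Ab1, Oasl2 and Tap1). Blood genes had 0 of 5 called higher and 0 lower (median -0.051, 0.025 on CTD and -0.032 on WD). Without CT-CTD 1 and CT-WD 1, the lists not given above for that setting had these other counts, with genes named after their values were seen. Called higher were 1 endothelial gene (Mmrn2), 7 angiogenic genes, 3 satellite cell genes (Chodl, Heyl and Vcam1), 4 immediate-early genes (Ctgf, Egr3, Ier2 and Junb), 1 blood gene (Pf4), 1 insulin signaling gene (Slc2a1), 2 genes of the Eya list (Dach1 and Eya2) and 2 of the Atf4 list (Asns and Pdia4). Called lower were 3 genes of the cyclin list (Cdkn1a, Cdkn1c and Rrm2), 5 of the Foxo list (Eif4ebp1, Fbxo32, Foxo1, Mstn and Trim63), 3 cytosolic ribosomal protein genes (Rpl21, Rpl34 and Rps3a2) and 1 insulin signaling gene (Tbc1d1). For the lists with 0 calls by edgeR in this text, limma on log2 FPKM also called 0, and DESeq2 called 0 but for Tchh higher among epidermal genes and Rabif lower among insulin signaling genes. The fold change with an unadjusted p under 0.05 held upward for 4 epidermal genes, 1 slow fibre gene, 1 gene of the Myc network and 1 interferon gene, downward for 1 interferon gene, 1 insulin signaling gene and 1 gene of mitochondrial DNA, and for 0 in the others. Schwann cell and myelin genes had 1 of 12 called higher and 0 lower (median 0.17, 0.14 on CTD and 0.16 on WD). The list's median was 0.020 without CT-CTD 2, 0.33 without CT-CTD 1 and 0.39 without CT-CTD 1 and CT-WD 1. The called gene was Egr2 (log2 fold change 0.73, SE 0.19, adjusted p = 0.027), a factor of myelination and also an immediate-early gene. Egr2 lost its call without CT-CTD 2, CT-CTD 3, CT-WD 3, OE-CTD 2 or OE-WD 3 (adjusted p up to 0.0634 without CT-CTD 3).

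The genes of this paragraph and the next are in none of the lists. Igha, the constant region of immunoglobulin A made by plasma cells, read 3.80 to 33.8 CPM in CT (median 8.59) and 1.24 to 2.56 CPM in OE (median 1.66). All OE libraries lay below all CT libraries, CT-CTD 3 and CT-WD 3 being highest. Igha fell by 3.53 log2 units on CTD and 2.71 on WD (log2 fold change -3.11, SE 0.45, adjusted p = 0.000879), and reads of immunoglobulin genes may map to several of them. Kcnf1, a potassium channel subunit that modifies other channels, read 17.4 to 58.9 CPM in CT (median 40.6) and 7.82 to 22.7 CPM in OE (median 10.5). The genotypes were apart within each diet, and Kcnf1 fell (log2 fold change -1.79, SE 0.23, adjusted p = 0.00047). Neto2, an accessory subunit of kainate receptors, read 17.5 to 38.6 CPM in CT (median 28.3) and 8.38 to 15.4 CPM in OE (median 10.3). These ranges were apart, and Neto2 fell (log2 fold change -1.38, SE 0.18, adjusted p = 0.000524). Hif3a, a hypoxia-inducible factor subunit, fell by 1.52 ± 0.22 log2 units (SE). Slc22a3, a carrier of organic cations, fell by 1.24 ± 0.29 log2 units (SE), and stood at a log2 fold change of -0.75 without CT-WD 3. In log2 units, Plekhd1 fell by 1.88, Odf3l2 by 1.56 and Trnp1, a nuclear protein that regulates chromatin, by 1.43. Slc18a1, a vesicular amine transporter, fell by 2.19 ± 0.45 log2 units (SE), with Atp6v1b2 on the opposite strand at far higher counts.

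Upward, Adamts8, a secreted metalloprotease, read 0.773 to 3.76 CPM in CT (median 1.44) and 3.99 to 7.83 CPM in OE (median 4.60). All OE libraries lay above all CT libraries, and Adamts8 rose by 0.96 log2 units on CTD and 1.73 on WD (log2 fold change 1.33, SE 0.30, adjusted p = 0.0138). Kctd12b, a gene of the family of potassium channel tetramerisation domain proteins, read 1.87 to 4.73 CPM in CT (median 3.01) and 5.80 to 9.89 CPM in OE (median 8.01). These were apart as well, and Kctd12b rose (log2 fold change 1.31, SE 0.17, adjusted p = 0.000529). Nos2, the inducible nitric oxide synthase, read 0.311 to 2.85 CPM in CT (median 1.57) and 2.06 to 4.66 CPM in OE (median 3.74). Apart within each diet, it rose (log2 fold change 1.26, SE 0.27, adjusted p = 0.0108). Lgr6, a receptor for R-spondins, rose by 1.15 ± 0.26 log2 units (SE). In log2 units, Lrrn4cl rose by 1.12, Klk10, a serine protease, by 1.23, Fam167a by 1.73 and Adcy3, an adenylyl cyclase whose locus holds Cenpo on the opposite strand, by 1.14. Serpina1b, of a family of near-identical antitrypsin genes, rose by 1.35 ± 0.28 log2 units (SE). Of genes without a standard name, 4931413K12Rik fell by 1.96 ± 0.23 log2 units (SE) with Pitpna on the opposite strand. Gm10222, a copy of mitochondrial sequence in the nuclear genome, rose by 0.82 ± 0.21 log2 units (SE). It lost its call without CT-CTD 2 or CT-WD 2 (adjusted p up to 0.0633 without CT-WD 2), and fell under the fold limit without OE-CTD 4 and OE-WD 4 (0.54), the libraries with the highest mitochondrial share.

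Besides Myc, 5 genes named because of earlier results of these data were not called. Acsl3, a ligase that activates long-chain fatty acids, stood at a log2 fold change of -0.96 on CTD and 0.17 on WD (log2 fold change -0.41, SE 0.18, adjusted p = 0.177), and its interaction did not pass (adjusted p = 0.675). Rabif, a chaperone of Rab proteins that includes Rab10 of glucose transporter traffic, missed the threshold (log2 fold change -0.68, SE 0.21, adjusted p = 0.0544) and passed it in 3 of the fits without 1 library, in a range of 0.00372 to 0.162 over the alternatives that keep the names as labelled. Rrad, a small GTPase that restrains calcium channels, stood at a log2 fold change of -0.17 ± 0.36 (SE, adjusted p = 0.828), and Socs3, an inhibitor of cytokine signaling, at 0.035 ± 0.42 (SE, adjusted p = 0.971). S100a3 did not reach the minimum count for testing. Without knowing muscle, time of harvest or what the library codes stand for, genotype cannot be told apart from these, the names of CT-WD and OE-CTD are in doubt, and 6 CT libraries of unlike profile carry the baseline.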

How the data were processed

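The authors deposited counts of reads for 54532 mouse genes without normalization, after alignment with HISAT2 2.0.5 and counting with featureCounts 1.5.0-p3 on mm10. The authors also deposited FPKM, counts divided by gene length and by a library total, which served in an alternative only. All 14 libraries were used, with 0 sample columns unused. Whether counting took the strand into account is not stated.

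Counts were fitted with edgeR 4.0.16 (R 4.3.3, limma 3.58.1, DESeq2 1.42.0): TMM scaling, filterByExpr over the 4 groups, which kept 15458 genes, and quasi-likelihood tests on diet plus genotype. Within-diet contrasts and the interaction came from a model with a mean for each group. P values were adjusted by Benjamini-Hochberg over all genes tested. A called gene differs over 1.5-fold with adjusted p under 0.05.

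Named genes were Myc, 11 fixed names, and the 12 largest increases and 12 largest decreases among certain called genes. Those average 1 CPM or more, and their genotypes are apart within each diet. Up to 4 called members of each of 37 lists were added, or up to 2 most abundant members where none was called. For genes without a standard name, the largest call each way could be named. The members of the comparison and the lists were chosen with earlier results of these data known. Alternatives were DESeq2, upper-quartile scaling, no filter, no diet term, the mean of within-diet contrasts, only the compared groups, replicate blocks, limma on log2 FPKM, exchanged names, and leaving out libraries. The result of leaving out a library is not reported here for some members of the Srebp list.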

Additional observations from a re-analysis of the deposited data

Results flagged for a closer look

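In 17 of 240 groups of 4 libraries examined, 1 library lay far outside the narrow range of the other 3, and chance gives about 1 in 20 such groups. OE-WD 1 read 1.52 CPM for Apln, below the others of its group (3.23 to 3.49). It read higher than the others for Eya4 (44.9 CPM, others 40.7 to 41.2), Myc (9.03 CPM, others 5.22 to 5.74) and Neto2 (15.4 CPM, others 9.92 to 10.8). Trim63 at 398 CPM (others 218 to 245) and Zbtb16 at 131 CPM (others 89.5 to 90.3) were also high in OE-WD 1. Its summed CPM was 1552 for ribosome biogenesis genes (others 1389 to 1413) and 1241 for Atf4 and unfolded protein response genes (others 891 to 933). OE-WD 2 summed to 159.6 CPM for macrophage markers (others 93.2 to 103). OE-WD 4 read 79.1 CPM for Gm10222 (others 27.6 to 34.8) and summed to 54582 CPM for glycolysis and glycogen genes (others 43046 to 44735). For giant sarcomere and nuclear envelope genes OE-WD 4 summed to 42512 CPM (others 29724 to 31307) and OE-CTD 4 to 43210.3 CPM (others 28795 to 29654). OE-CTD 4 also summed to 164981 CPM for fast fibre genes (others 121794 to 126217) and to 230.4 CPM for satellite cell genes (others 202 to 204). It was low for Lrrn4cl, at 8.68 CPM (others 14.7 to 15.3). OE-CTD 3 summed to 774 CPM for pericyte and smooth muscle markers (others 817 to 822). The cause of these values was not tested.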

How the results depend on the processing

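Of the 74 named genes called, 28 were called in all 25 alternatives that keep the names as labelled, and all 74 without CT-CTD 1 and CT-WD 1. With names as labelled, no called gene named here changed direction. The median log2 fold change of all genes moved most, by 0.0099, without CT-CTD 1 and CT-WD 1. DESeq2 called 504 genes on CTD, 308 on WD and 9 for the interaction. With no filter on low counts there were 570 on CTD, 401 on WD and 29 for the interaction. With only the 2 groups compared in the fit, WD had 4 (Syne1, Spns2, Eya4 and Map3k6). On log2 of FPKM plus 1, limma called 190 genes over both diets, of which 163 met the rule for both diets, with 108 on CTD and 15 on WD, and with 0.1 added 466 over both diets, 371 in both, 177 on CTD and 8 on WD. The causes were not tested. Without CT-CTD 1 and CT-WD 1, a choice made after seeing the data, the counts were 1223 over both diets, 840 in both, 550 on CTD, 997 on WD and 1 for the interaction (St3gal1), with 75.7% of the called genes higher in OE. Without OE-CTD 4 and OE-WD 4, chosen likewise, WD had 4 (Dbp, Syne1, Spns2 and Eya4). With 1 library left out at a time, the counts were 346 to 998 over both diets, 249 to 731 in both, 64 to 440 on CTD, 4 to 905 on WD and 0 to 1 for the interaction (Cnksr3 without CT-WD 1, Acsl3 without CT-WD 2). Leaving out a library makes a group smaller, and the cause beyond that was not tested. Log2 fold changes that turned without 1 library were those of Myc (-0.28 to 0.043), Rrad (-0.42 to 0.15) and Socs3 (-0.25 to 0.29), none called.

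With replicate number as a block, which pairs libraries by number, 660 genes were called over both diets and 525 in both. With the block nested within diet the counts were 338 over both diets, 14 on CTD and 1 on WD (Syne1), and Myc stood at 0.017 and Rrad at 0.17. Numbers pair nothing the labels state: residuals of CT and OE libraries of the same number had correlations of -0.23 to 0.046. On log2 FPKM Rrad stood at 0.14 with 1 added and at 0.20 with 0.1 added.

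When CT-WD and OE-CTD trade names, a check chosen with earlier results known, the contrast becomes the labelled diet contrast by construction. The exchange is more than a formal check. It gives the group sizes of another account of the design, and the files do not settle which naming is right. That account also reports Zbtb16 as higher in OE-WD than in CT-WD, its direction under the exchange and not as labelled. It reports Rabif as higher there too. Over both diets Rabif stood at 0.63 under the exchange and at -0.68 as labelled. Acsl3, also reported as higher there, stood at 0.16 and -0.41, though it was higher on WD as labelled. Rrad, reported as lower there, was lower over both diets under either naming (-0.32 and -0.17). The exchange called 1 gene over both diets and 1 in both (Zbtb16), 0 on CTD with edgeR and 1 on WD (Zbtb16). Zbtb16 then stood at a log2 fold change of 1.02 over both diets and 1.23 on WD, and as labelled at -0.78 and -0.53, so its direction depends on the names. Log2 fold changes that turned under the exchange were Acsl3 0.16, Adcy3 -0.15, Angpt1 -0.073, Apln -0.29, Aplnr -0.18, Ccnd1 -0.077, Ciart -0.28, Col15a1 -0.036, Dach1 -0.41, Dbp -0.43, Egr2 -0.025, Egr3 -0.23, Eif4ebp1 0.063, Eya4 0.27, Fam107a 0.54, Fbxo32 0.49, Fkbp5 0.34, Folr2 -0.026, Foxo6 -0.52, Hif3a 0.50, Kcnf1 0.46, Kctd12b -0.27, Lep -1.07, Loxl2 -0.041, Mt1 0.63, Musk 0.22, Myc 0.46, Myod1 0.21, Nfil3 1.21, Nos2 -0.66, Nr1d1 -0.30, Odc1 0.14, Odf3l2 0.57, Pdk4 0.33, Pfkfb3 -0.0059, Plin4 0.32, Ppp1r3c 0.56, Rabif 0.63, Rpl21 0.20, Rpl34 0.21, Rrm2 0.060, Scd2 -0.034, Serpina1b -0.045, Slc18a1 0.61, Slc22a3 0.77, Socs3 -0.31, Sox18 0.060, Syne1 0.031, Trim63 0.64, Trnp1 0.26, Ucp3 0.46 and Zbtb16 1.02.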
